A study of Homo sapiens with 10 samples.

Results

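The libraries described here are RNA-seq libraries of K562 cells, a human erythroleukemia line, in which the dual repressor enCRISPRi-LK was brought to the HS2 enhancer, beside libraries with the nontargeting guide sgGal4. They were chosen by their titles, which name enCRISPRi-LK with sgHS2 (replicates 1 and 2) or sgGal4 (replicates 1 and 2). Thus 4 of the 10 libraries of the series are set against each other, while the estimate of the spread used all 10. Of the genes listed, 10127 were tested, those that averaged 1 TPM or more across the 10 libraries. In LK, doxycycline-inducible dCas9-LSD1 is paired with an sgRNA whose MS2 hairpins recruit MCP-KRAB, and all HS2 sgRNAs were combined. The remaining libraries carried the HS2 sgRNAs with enCRISPRi-KL (dCas9-KRAB with MCP-LSD1), with dCas9-KRAB alone (K) or with dCas9-LSD1 alone (L), 2 libraries each. Cells were sorted by FACS for the fluorescent markers of the constructs. The labels do not say which effector the sgGal4 cells carried. The labels name poly(A) selection and a NEBNext Ultra II Directional kit, whereas the methods of the study name the Ovation system. The study calls the 2 libraries of a group experiments and does not describe how cultures were divided between them, so the p-values below measure the spread between these samples, whatever its source.

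HS2 is a DNase I hypersensitive site of the β-globin locus control region, which acts over distance on the embryonic, fetal and adult genes of the β-globin cluster. LSD1 removes methyl groups from lysine 4 of histone H3, a mark of active enhancers, and KRAB domains recruit TRIM28 and a histone H3 lysine 9 methyltransferase. Values are in TPM, a length-scaled share of all transcripts, so that a change in abundant transcripts moves the values of all others, and differences are LK minus sgGal4 on the log2(TPM + 1) scale, which understates those of low genes. An adjusted p under 0.05 in limma counts as a call. The number of reads behind each TPM is not known, and no interval that needs it is given. The listed values summed to 844414 and 812743 TPM in the sgGal4 libraries and to 808116 and 825663 TPM in the LK libraries, with 12208, 11634, 11578 and 11572 genes above 0 in this order.

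The genes of the effectors were read as a check of the labels. ZNF10, the source of a KRAB domain in wide use, was at 0.97 and 1.89 TPM with sgGal4 and at 36.8 and 31.5 TPM in the libraries labelled LK (log2 difference 3.88, adjusted p = 2.75e-05). The groups did not overlap, and the call held without each of the 4 libraries. KDM1A, which encodes LSD1, was at 25.2 and 33.5 TPM with sgGal4 and at 27.4 and 30.6 TPM in the libraries labelled LK. These groups overlapped, although LK includes dCas9-LSD1. In the libraries labelled L, whose label names no KRAB, ZNF10 was at 128 and 136 TPM, and in those labelled K, whose label names KRAB, it was at 1.18 and 3.80 TPM. Other levels ran as the labels say, with ZNF10 at 365 and 360 TPM in KL and KDM1A at 105 and 84.2 TPM in L against 29.2 and 27.7 TPM in K. In KL, whose label names LSD1, KDM1A was at 26.8 and 26.6 TPM. Because the levels do not follow the labels in every group, LK, KL, K and L refer below to libraries so labelled.

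Of 12 genes fixed as markers of K562 cells, 12 were above 1 TPM in all 4 libraries. Of 28 markers of other cell types, 14 were at 0 in all 4. CD3E and CD2 of T cells were at 0, whereas CD3D of T cells was at 26.1 and 33.6 TPM with sgGal4 and at 21.3 and 8.92 TPM in LK. Of the myeloid markers, CSF1R, MPO and ELANE were at 0, CD14, AZU1 and PRTN3 at no more than 1.54 TPM in any library, and LYZ was at 0.79 and 2.11 TPM with sgGal4 and at 2.88 and 3.37 TPM in LK. PRG2 of eosinophils and mast cells was at 0 and 0.26 TPM with sgGal4 and at 2.63 and 1.57 TPM in LK. EPX and CPA3 of the same cell types were at 0 in all 4. LHX1, a marker of a kidney line, was at 1.33 and 1.12 TPM with sgGal4 and at 4.86 and 6.63 TPM in LK. PAX2, the other kidney line marker, was at 0 in all 4. The epithelial markers did not move together. KRT8 was lower in LK, from 107 and 161 TPM with sgGal4 to 94.7 and 100 TPM. EPCAM was higher, from 44.2 and 47.0 TPM with sgGal4 to 49.8 and 52.0 TPM in LK. KRT18 overlapped, with 132 and 168 TPM with sgGal4 and 116 and 140 TPM in LK. The summed level of the 28 was 314 and 420 TPM with sgGal4 and 297 and 317 TPM in LK. KRT18 of epithelial cells was the most abundant. Mitochondrially encoded transcripts took 53.6% of the TPM in sgGal4 replicate 1 and 43.7% in sgGal4 replicate 2, against 42.8% and 44.0% in LK. The part of this share in the differences between LK and sgGal4 was not tested, beyond the values given with mitochondrial genes removed.

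LK differed from sgGal4 in 203 of 10127 genes (2.00%), of which 119 were higher (1.18%) and 84 were lower (0.829%). Both LK libraries lay on the same side of both sgGal4 libraries in 203 of the 203, and this was so for 45.7% of all genes tested. Calls of at least 1 on the log2 scale were mostly decreases, with 68 lower and 34 higher genes. The median difference was 0.82 among the genes called higher and −1.45 among those called lower, against 0.03 over all genes tested. The genes called lower had a median of 51.1 TPM with sgGal4 and 17.1 TPM in LK, and those called higher went from 116 to 202 TPM, whereas the median gene tested was at 14.0 and 13.9 TPM. The number of calls leaned on single libraries. Without LK replicate 1 there were 20 calls (7 higher, 13 lower), of which 17 were among the 203, and without LK replicate 2 there were 25 (8 higher, 17 lower), of which 24 were among the 203. Without sgGal4 replicate 1 there were 86 (47 higher, 39 lower), with 70 of the 203 kept and a median over all genes of −0.11. Without sgGal4 replicate 2 there were 209 (171 higher, 38 lower, or 81.8% higher), with 122 of the 203 kept and a median of 0.16.

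The balance of directions also moved with the processing. With no mean-variance trend there were 4 higher and 11 lower genes, and with only the groups compared there were 17 higher and 40 lower. Of the genes whose calls against sgGal4 are given, only HBE1, ZNF10, ARHGDIB, APOC1, EVI2B, DDIT4, CHAC1, GDF15, SLC7A11, VEGFA and ASNS kept them with no trend. With no filter on low values there were 35 higher and 26 lower genes. Size factors gave 102 higher and 113 lower genes, and quantile normalization gave 91 higher and 110 lower. With mitochondrial genes removed and the rest rescaled, 91 were higher and 153 lower (37.3% higher, against 58.6%), and the median over all genes shifted to −0.09. Replicates differed by a median of 0.25 in LK and 0.36 in sgGal4 on the log2 scale.

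**Figure D1:**
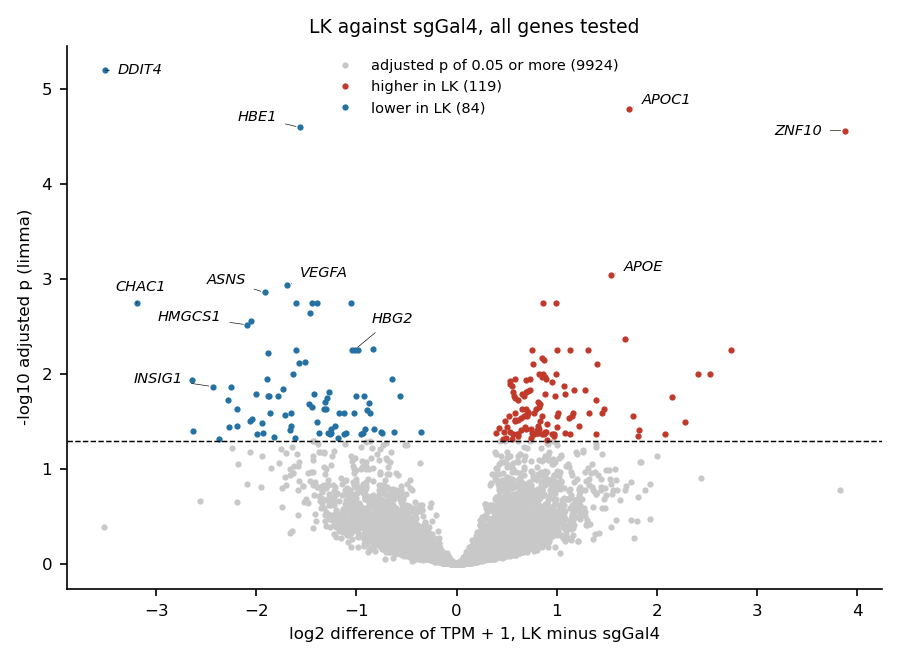
Each dot is 1 of 10127 genes tested, with the log2 difference of LK from sgGal4 on the x axis and the negative log10 of the adjusted p on the y axis, and the colored dots are the 203 genes called. HBE1 and DDIT4 stand out among the lower genes, and APOC1 and ZNF10 among the higher ones.

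The 5 genes of the β-globin cluster have 3 exons each and are read from the minus strand of chromosome 11 (hg19), and HBE1 at chr11:5289575-5291175 is the nearest of them to the locus control region. HBE1, which encodes the embryonic ε-globin chain, was at 1376 and 1620 TPM with sgGal4 and at 557 and 458 TPM in LK. Both LK libraries lay far below both sgGal4 libraries, and the LK mean was 33.9% of the sgGal4 mean. The log2 difference was −1.56 (SE 0.129, adjusted p = 2.55e-05), and HBE1 was called under every alternative tried, with an adjusted p of at most 0.0492. In these bulk libraries, fewer cells with a transcript and less of it per cell cannot be told apart.

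HBG2, at chr11:5274418-5276011, encodes a fetal γ-globin chain and was at 941 and 673 TPM with sgGal4 and at 365 and 421 TPM in LK. The groups did not overlap, and the LK mean was 48.7% of the sgGal4 mean (log2 difference −1.02, SE 0.159, adjusted p = 0.00556). The call was lost without LK replicate 1 (adjusted p = 0.0758) and kept without LK replicate 2 (0.0372). It was lost with no filter on low values and with no mean-variance trend, and over these settings the adjusted p went up to 0.149. HBG1, the neighbouring γ-globin gene at chr11:5269499-5271087, was at 118 and 99.4 TPM with sgGal4 and at 70.6 and 64.5 TPM in LK. Here too both LK libraries were lower, but the difference of −0.67 was not called (adjusted p = 0.113). The γ-globin genes HBG1 and HBG2 are nearly alike in sequence, and reads with several locations were dropped, so the split between these genes is uncertain.

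HBD, which encodes the δ chain of a minor adult hemoglobin, was at 19.4 and 18.5 TPM with sgGal4 and at 22.0 and 19.1 TPM in LK (log2 difference 0.11, adjusted p = 0.886). Its groups overlapped, and with mitochondrial genes removed the difference was −0.013. HBB, the adult β-globin gene, was at 4.70 and 2.91 TPM with sgGal4 and listed at 0 and 2.66 TPM in LK, without overlap, a difference of −1.30 that was not called (adjusted p = 0.393). The summed level of the 5 genes was 2459 and 2414 TPM with sgGal4 and 1015 and 965 TPM in LK, or 40.6%. The same sum was 686 and 648 TPM in KL, 1572 and 1513 TPM in K, and 1707 and 1627 TPM in L. The median difference over the 5 genes was −1.02, against 0.03 over all genes, with 2 lower and 0 higher, beside 0.829% of all genes called lower and 1.18% higher.

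**Figure D2:**
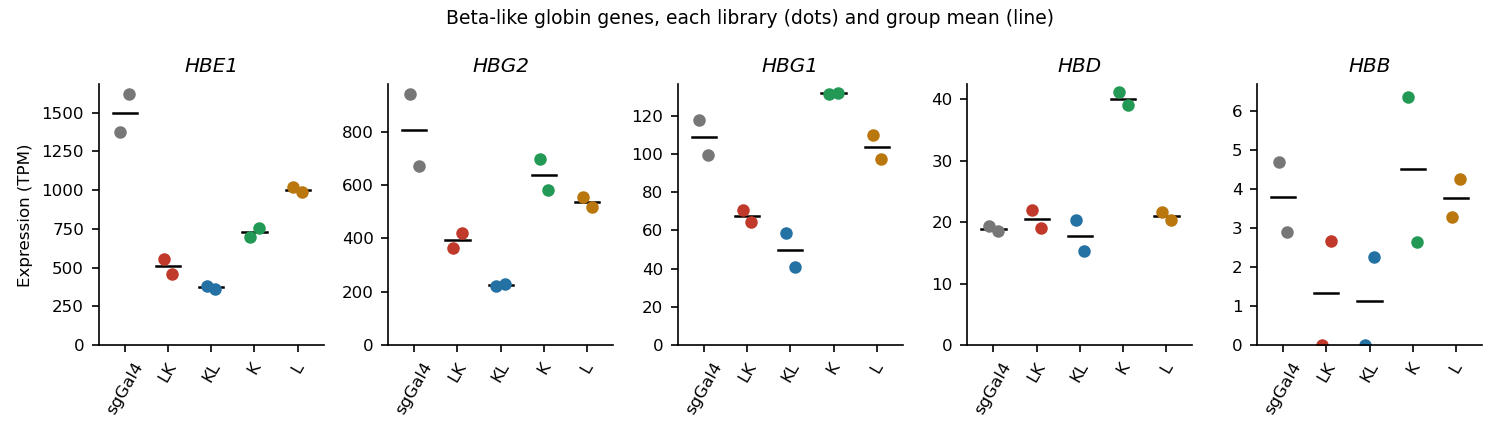
The y axis is the TPM of each β-like globin gene from 0, with 1 dot per library for the 5 groups on the x axis and a line at each group mean. HBE1, HBG2 and HBG1 are lower in both LK libraries than in both sgGal4 libraries, and for HBD these groups overlap.

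The α-like globin genes lie on another chromosome. HBZ, which encodes the embryonic ζ-globin chain that pairs with ε-globin, was at 1034 and 940 TPM with sgGal4 and at 800 and 829 TPM in LK (log2 difference −0.28, adjusted p = 0.409). HBA1, which encodes an α-globin chain, was at 136 and 81.3 TPM with sgGal4 and at 60.7 and 50.8 TPM in LK (log2 difference −0.91, adjusted p = 0.137). In neither gene did the groups overlap, and neither was called, but HBZ was called under quantile normalization (log2 difference −0.60, adjusted p = 0.0412). Over the alternatives the adjusted p of HBZ ran from 0.0412 to 0.720. HBA1 has a near-identical copy, so its level rests on part of its reads. Over the 4 α-like genes tested, 0 were called in limma, beside 2.00% of all genes, with a median difference of −0.32. The sum over the 6 α-like genes listed was 1202 and 1062 TPM with sgGal4 and 890 and 909 TPM in LK. At an unadjusted p under 0.05, 1439 of the 10127 genes tested passed.

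Genes near the cluster were read as a group. Of the 13 genes tested within 1000 kb of HBE1, 2 were lower and 0 were higher, and these were HBE1 and HBG2. Over the whole of chromosome 11, 8 genes were higher and 7 were lower of 556 tested, or 2.70%, against 1.91% of the 9307 genes with a position. Of 20 tested genes in a list of those flanking the cluster, limma called 0, beside 2.00% of all genes tested, with a median difference of 0.14.

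Erythroid genes outside the globin clusters were read against the 2.00% of all genes called, 1.18% higher and 0.829% lower. Of 23 erythroid transcription factors tested, limma called 0 (median difference 0.13), and of 12 enzymes of heme biosynthesis it also called 0 (median −0.10). Of 21 genes of iron handling, 1 was lower (median 0.09), namely SLC25A37, which imports iron into mitochondria. SLC25A37 was at 98.8 and 107 TPM with sgGal4 and at 58.5 and 62.4 TPM in LK (log2 difference −0.76, adjusted p = 0.0411). Of 24 genes of the red cell membrane, 2 were lower and 0 higher, with a median of −0.28. STOM, which encodes the membrane protein stomatin, was at 82.0 and 118 TPM with sgGal4 and at 34.3 and 30.7 TPM in LK (log2 difference −1.57, adjusted p = 0.00757). CD44, a cell adhesion receptor for hyaluronan, had a difference of −1.13 (adjusted p = 0.0259). In all 3 genes both LK libraries lay below both sgGal4 libraries. The call of SLC25A37 was lost without any of the 4 libraries, with adjusted p of 0.263, 0.240, 0.0953 and 0.109 without LK replicates 1 and 2 and sgGal4 replicates 1 and 2. That of CD44 was lost without any of the 4 as well, up to 0.257 without LK replicate 2, and that of STOM without LK replicate 1 (0.0570) or 2 (0.107).

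Lists of other lineages were read against the same shares, 1.18% called higher and 0.829% lower. Of 10 megakaryocyte genes, 1 was higher and 0 lower, with a median of −0.25. The higher gene, SPARC, encodes a secreted matrix protein and was at 9.23 and 21.6 TPM with sgGal4 and at 32.8 and 46.0 TPM in LK (log2 difference 1.39, adjusted p = 0.0429). Its groups did not overlap, but the call was lost without LK replicate 1 (0.120), LK replicate 2 (0.365) or sgGal4 replicate 1 (0.265). Of 9 tested markers of other blood and tissue cell types, limma called 0, with a median of −0.22 that was 0.091 without LK replicate 1.

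ATF4 is a transcription factor whose translation rises when the integrated stress response slows protein synthesis, as under amino acid shortage, and its targets include genes of amino acid supply and of cell death. Of 21 ATF4 stress effectors tested, 9 were lower and 0 higher, against 0.829% called lower over all genes. This list, like the others, was chosen with earlier results of these data known, so its count is a description and no test. The median difference was −1.25, 19 of the 21 were negative, and in 17 of them both LK libraries lay below both sgGal4 libraries. Over all genes tested, the groups lay apart in either direction in 45.7%. The summed level of the 24 effectors listed was 834 and 1076 TPM with sgGal4 and 428 and 435 TPM in LK, or 45.2%. The other HS2-targeted groups, compared with the same sgGal4 libraries, also lay below them, with 581 and 502 TPM in K, 568 and 573 TPM in L and 635 and 585 TPM in KL. The number of lower genes was 4 without LK replicate 1, 5 without LK replicate 2, 7 without sgGal4 replicate 1 and 5 without sgGal4 replicate 2.

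DDIT4, which encodes an inhibitor of the growth kinase complex mTORC1, was at 146 and 195 TPM with sgGal4 and at 14.5 and 13.5 TPM in LK. The LK libraries were close to each other and far below sgGal4, and their mean was 8.18% of the sgGal4 mean (log2 difference −3.51, SE 0.239, adjusted p = 6.39e-06). CHAC1, whose enzyme breaks down glutathione, was at 16.7 and 26.8 TPM with sgGal4 and at 1.19 and 1.68 TPM in LK. The LK mean was 6.60% of the sgGal4 mean (log2 difference −3.19, adjusted p = 0.0018), with no overlap. ASNS, which encodes asparagine synthetase, was at 74.8 and 79.9 TPM with sgGal4 and at 19.4 and 20.1 TPM in LK. Again the groups lay apart, at 25.6% (log2 difference −1.91, adjusted p = 0.00139). VEGFA, which encodes a growth factor of blood vessels, was at 81.4 and 83.5 TPM with sgGal4 and at 25.1 and 24.6 TPM in LK (log2 difference −1.69, adjusted p = 0.00116). DDIT4, CHAC1, ASNS and VEGFA kept their calls without each of the 4 libraries.

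The other 5 called effectors rested more on single libraries. GDF15, which encodes a stress-induced secreted cytokine, was at 51.5 and 74.3 TPM with sgGal4 and at 11.2 and 17.8 TPM in LK (log2 difference −2.06, adjusted p = 0.00277). ATF3, a transcription factor induced by ATF4, was at 14.7 and 25.7 TPM with sgGal4 and at 5.24 and 3.95 TPM in LK (log2 difference −1.88, adjusted p = 0.017). In both genes the LK libraries lay below the sgGal4 libraries without overlap. GDF15 lost its call without LK replicate 1 (adjusted p = 0.0521). ATF3 lost it without LK replicate 1 (0.083), LK replicate 2 (0.203) or sgGal4 replicate 2 (0.102). BBC3, which encodes the proapoptotic protein PUMA, was at 10.1 and 13.9 TPM with sgGal4 and at 2.38 and 1.79 TPM in LK (log2 difference −2.06, adjusted p = 0.031). DDIT3, the stress-induced transcription factor CHOP, was at 29.6 and 33.8 TPM with sgGal4 and at 14.2 and 11.4 TPM in LK (log2 difference −1.25, adjusted p = 0.038). SESN2, a leucine sensor that restrains mTORC1, differed by −1.65 (adjusted p = 0.0354). BBC3, DDIT3 and SESN2 had no overlap but lost their calls without any of the 4 libraries. Over the called effectors, the highest adjusted p was 0.286 without LK replicate 1, 0.316 without LK replicate 2, 0.114 without sgGal4 replicate 1 and 0.152 without sgGal4 replicate 2. The transcript of ATF4 itself was at 124 and 164 TPM with sgGal4 and at 86.4 and 94.4 TPM in LK, without overlap, and was not called (log2 difference −0.66, adjusted p = 0.0658). ATF4 was called with a filter at 10 TPM (0.0389), size factors (0.0243), quantile normalization (0.017), mitochondrial genes removed (0.0111) and without sgGal4 replicate 1 (0.0383), and over the alternatives its adjusted p ran from 0.0111 to 0.361.

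Promoters are shown of the 3 called effectors whose entries hold a motif of ATF4, chosen for that match, as 300 bases around the start given by RefSeq. Coordinates of promoters are those of GRCh38.p14, while the values rest on hg19. They are CHAC1 (chr15:40953221-40953520, plus strand), ASNS (chr7:97872359-97872658, minus strand) and ATF3 (chr1:212565157-212565456, plus strand), the latter 2 as the first of 2 entries each, and capitals mark TGATGNAA, the core of elements bound by ATF4 with C/EBP factors, read on both strands.
CHAC1: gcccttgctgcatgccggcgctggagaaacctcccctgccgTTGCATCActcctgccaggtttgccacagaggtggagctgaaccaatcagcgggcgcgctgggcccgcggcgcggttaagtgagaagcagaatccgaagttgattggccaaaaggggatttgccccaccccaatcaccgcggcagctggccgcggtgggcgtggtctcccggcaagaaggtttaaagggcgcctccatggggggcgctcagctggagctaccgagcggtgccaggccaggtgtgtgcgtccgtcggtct
ASNS: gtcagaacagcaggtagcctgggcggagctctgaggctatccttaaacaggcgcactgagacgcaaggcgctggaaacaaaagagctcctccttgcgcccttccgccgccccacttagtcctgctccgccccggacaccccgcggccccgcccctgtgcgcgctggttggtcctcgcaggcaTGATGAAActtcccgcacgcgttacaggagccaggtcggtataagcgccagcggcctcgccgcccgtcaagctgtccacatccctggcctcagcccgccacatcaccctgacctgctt
ATF3: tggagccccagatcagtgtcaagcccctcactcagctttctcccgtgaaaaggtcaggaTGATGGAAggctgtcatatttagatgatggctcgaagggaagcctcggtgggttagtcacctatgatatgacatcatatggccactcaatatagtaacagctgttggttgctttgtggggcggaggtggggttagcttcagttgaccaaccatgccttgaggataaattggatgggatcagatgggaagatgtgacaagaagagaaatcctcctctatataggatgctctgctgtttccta
The motif lay 209 bases before the start on the opposite strand in CHAC1, 68 bases before it in ASNS and 191 bases before it in ATF3. TGATGNAA was present in 3 of 11 entries of the called effectors (8 of 9 genes matched) and in 5 of 32 entries of all those tested (18 of 21 matched), against 3.62% of all 35116 entries. CCAAT, a motif of the factor NF-Y, was present in 8 of the 11 entries and 12 of the 32, against 34.6% of all entries. TGATGNAA was not found in the entry of DDIT4, and 1.84% of the entries of genes tested hold it. VEGFA had no entry, and 7740 of the 10127 genes tested had at least 1. A match describes letters in the window and says nothing of binding.

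Lists of amino acid supply were read against the 0.829% of all genes called lower, and counts of 1 gene rest on that gene alone. Of 15 amino acid transporters, 2 were lower and 0 higher (median −0.41). SLC38A2, a sodium-coupled neutral amino acid transporter, was at 225 and 298 TPM with sgGal4 and at 95.0 and 94.6 TPM in LK (log2 difference −1.44, adjusted p = 0.0018). The groups lay apart, and the call held without each library but was lost with no trend (0.0758). SLC7A11, the cystine and glutamate exchanger, was at 7.70 and 10.4 TPM with sgGal4 and at 1.66 and 1.81 TPM in LK (log2 difference −1.87, adjusted p = 0.0259). Of 21 enzymes of serine, glycine, proline and transsulfuration, 1 was lower and 0 higher (median −0.32), namely ALDH1L2, a mitochondrial enzyme of folate metabolism. ALDH1L2 was at 10.2 and 12.2 TPM with sgGal4 and at 1.23 and 3.47 TPM in LK (log2 difference −1.95, adjusted p = 0.0327). Of 22 cytosolic aminoacyl-tRNA synthetases, 1 was lower and 0 higher (median −0.35). This was GARS, which charges glycine tRNA and was at 167 and 185 TPM with sgGal4 and at 101 and 89.9 TPM in LK (log2 difference −0.87, adjusted p = 0.0202). SLC7A11, ALDH1L2 and GARS did not overlap between groups and lost their calls without any of the 4 libraries. In the order LK replicate 1, LK replicate 2, sgGal4 replicate 1, sgGal4 replicate 2, the adjusted p became 0.181, 0.195, 0.0849 and 0.122 for SLC7A11. In the same order it became 0.286, 0.0850, 0.118 and 0.124 for ALDH1L2, and 0.104, 0.229, 0.0510 and 0.0671 for GARS.

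The unfolded protein response of the endoplasmic reticulum shares ATF4 and has other arms that raise chaperones. Of 22 of its genes tested, 1 was higher and 1 lower, with a median of 0.05, beside 1.18% of all genes called higher and 0.829% lower. The chaperone gene CALR was higher, with 210 and 305 TPM with sgGal4 and 428 and 465 TPM in LK (log2 difference 0.82, adjusted p = 0.0196). HERPUD1, which acts in the degradation of misfolded proteins, was lower, with 45.1 and 50.1 TPM with sgGal4 and 12.8 and 22.2 TPM in LK (log2 difference −1.44, adjusted p = 0.022). Neither gene overlapped between groups. CALR lost its call without LK replicate 1 (0.106), LK replicate 2 (0.221) or sgGal4 replicate 1 (0.0858), and HERPUD1 without LK replicate 1 (0.236), sgGal4 replicate 1 (0.0843) or sgGal4 replicate 2 (0.0825).

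Genes of sterol synthesis are switched on by SREBP transcription factors when sterols in the endoplasmic reticulum are low. The lists of these genes were chosen with earlier results of these data known, so their counts are descriptions and no tests. Of 10 genes of the mevalonate pathway tested, 3 were lower and 0 higher, against 0.829% of all genes called lower, 10 of the 10 were negative, and the median was −1.13. Their summed level was 638 and 785 TPM with sgGal4 and 320 and 318 TPM in LK, or 44.9%. It was about the same in the other HS2-targeted groups, which share these controls, with 313 and 285 TPM in K, 315 and 306 TPM in L and 303 and 295 TPM in KL. HMGCS1, which encodes the synthase at the head of the pathway, was at 66.2 and 105 TPM with sgGal4 and at 14.6 and 24.3 TPM in LK (log2 difference −2.09, adjusted p = 0.00304). FDFT1, the squalene synthase gene, was at 194 and 233 TPM with sgGal4 and at 70.4 and 83.8 TPM in LK (log2 difference −1.46, adjusted p = 0.00229). IDI1, an isomerase of the isoprenoid building block, was at 86.3 and 102 TPM with sgGal4 and at 41.0 and 40.9 TPM in LK (log2 difference −1.17, adjusted p = 0.0256). In all 3 genes the groups lay apart. HMGCS1 and FDFT1 lost their calls without LK replicate 1 (adjusted p = 0.0521 in both), and IDI1 without LK replicate 1 (0.170), LK replicate 2 (0.209), sgGal4 replicate 1 (0.0724) or sgGal4 replicate 2 (0.102). With no trend all 3 calls were lost (0.0577 for HMGCS1, 0.0758 for FDFT1 and 0.146 for IDI1), and with no filter that of IDI1 was (0.0775).

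Of 9 genes of late sterol synthesis, 2 were lower and 0 higher, beside 0.829% lower over all genes, 9 of the 9 were negative, and the median was −0.75. The sum over the 11 genes listed was 273 and 315 TPM with sgGal4 and 170 and 151 TPM in LK, or 54.6%. It was 132 and 139 TPM in K, 142 and 162 TPM in L and 123 and 117 TPM in KL, which share the sgGal4 controls. MSMO1, which removes methyl groups from the sterol ring, was at 36.0 and 30.1 TPM with sgGal4 and at 9.49 and 3.84 TPM in LK (log2 difference −2.25, adjusted p = 0.0137). SQLE, the squalene epoxidase gene, was at 73.2 and 75.1 TPM with sgGal4 and at 33.4 and 27.0 TPM in LK (log2 difference −1.28, adjusted p = 0.0156). Both genes lay lower in both LK libraries. MSMO1 lost its call without LK replicate 2 (0.202) or sgGal4 replicate 1 (0.0964). SQLE lost it without LK replicate 1 (0.0753), LK replicate 2 (0.204), sgGal4 replicate 1 (0.0700) or sgGal4 replicate 2 (0.0502). Both were lost with no trend (0.0804 for MSMO1, 0.0951 for SQLE) and with no filter (0.0775 and 0.0538).

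Of 24 SREBP regulators and genes of cholesterol uptake and lipid synthesis, 5 were lower and 0 higher, beside 0.829% lower over all genes, with a median of −0.35. The sum over the 28 genes listed was 1248 and 1433 TPM with sgGal4 and 785 and 842 TPM in LK, or 60.7%. In the other HS2-targeted groups it was 874 and 724 TPM (K), 781 and 889 TPM (L) and 780 and 758 TPM (KL). INSIG1, which holds SREBP in the endoplasmic reticulum and is itself its target, was at 38.1 and 64.5 TPM with sgGal4 and at 13.7 and 4.96 TPM in LK (log2 difference −2.43, adjusted p = 0.0136). FADS1, a fatty acid desaturase, was at 272 and 238 TPM with sgGal4 and at 85.0 and 109 TPM in LK (log2 difference −1.39, adjusted p = 0.0018). SCD, which makes monounsaturated fatty acids, was at 194 and 229 TPM with sgGal4 and at 105 and 97.7 TPM in LK (log2 difference −1.05, adjusted p = 0.00556). None of these 3 genes overlapped between groups. The other called genes were the desaturase FADS2 (log2 difference −1.82, adjusted p = 0.0453) and the acetyl-CoA synthetase ACSS2 (log2 difference −1.25, adjusted p = 0.042). FADS2 and ACSS2 lost their calls without any of the 4 libraries, with adjusted p up to 0.263 without LK replicate 1, 0.341 without LK replicate 2, 0.224 without sgGal4 replicate 1 and 0.180 without sgGal4 replicate 2. INSIG1 lost its call without LK replicate 2 (0.185) or sgGal4 replicate 2 (0.0819), FADS1 without LK replicate 1 (0.0510), and SCD without LK replicate 1 (0.0541) or LK replicate 2 (0.107). With no trend all 5 calls were lost (adjusted p from 0.0804 for FADS1 to 0.162 for ACSS2), and with no filter those of INSIG1, FADS2 and ACSS2 were.

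**Figure D3:**
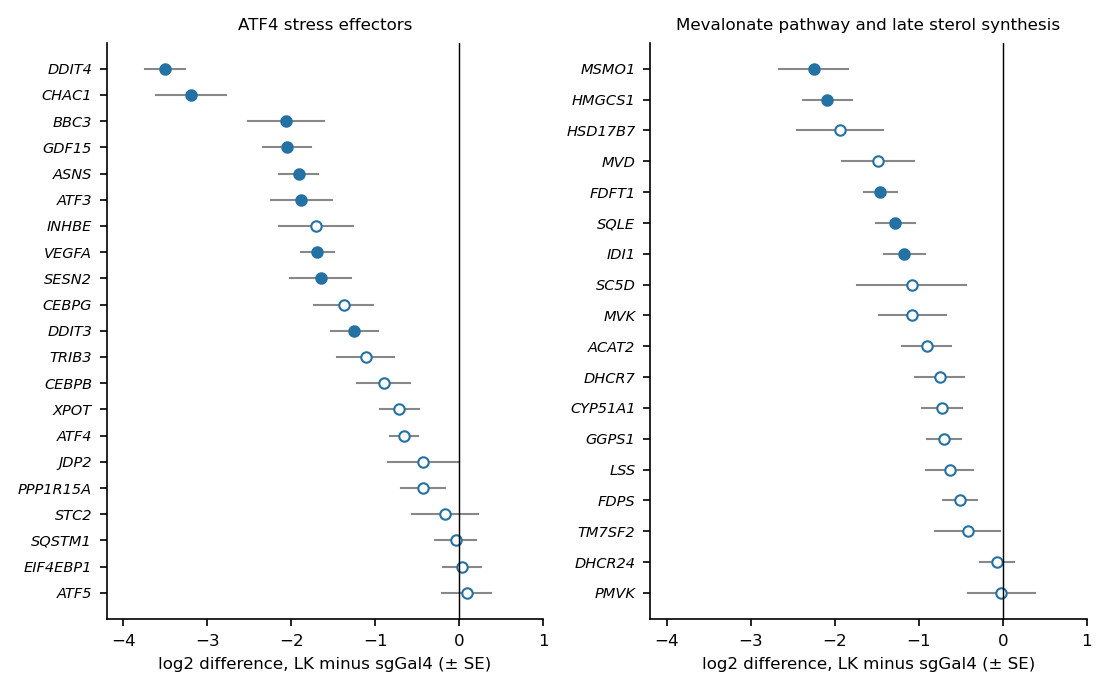
The x axis is the log2 difference of LK from sgGal4 for the 21 ATF4 stress effectors tested (left) and most genes tested of the mevalonate pathway and late sterol synthesis (right), with lines of 1 standard error and filled dots for called genes. DDIT4 and CHAC1 lie lowest on the left (−3.51 and −3.19) and MSMO1 on the right (−2.25).

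Promoters of HMGCS1 (chr5:43313363-43313662, minus strand, first of 2 entries) and MSMO1 (chr4:165327419-165327718, plus strand) are shown as called members of the sterol lists whose entries hold CCAAT, chosen for that match, from RefSeq in GRCh38.p14, with CCAAT in capitals on either strand.
HMGCS1: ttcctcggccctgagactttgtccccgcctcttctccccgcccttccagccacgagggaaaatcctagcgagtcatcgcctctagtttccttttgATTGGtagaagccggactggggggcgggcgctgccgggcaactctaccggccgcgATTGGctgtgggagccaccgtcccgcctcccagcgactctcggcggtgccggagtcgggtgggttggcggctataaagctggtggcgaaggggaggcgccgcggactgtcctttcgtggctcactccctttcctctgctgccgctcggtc
MSMO1: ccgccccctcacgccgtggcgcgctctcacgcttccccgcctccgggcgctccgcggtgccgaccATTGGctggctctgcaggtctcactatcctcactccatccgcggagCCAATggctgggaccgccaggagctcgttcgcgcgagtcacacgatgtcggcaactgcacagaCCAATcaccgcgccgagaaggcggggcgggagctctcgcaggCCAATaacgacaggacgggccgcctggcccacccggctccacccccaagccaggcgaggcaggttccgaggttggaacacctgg
In HMGCS1 the motif lay 155 and 100 bases before the start, on the opposite strand each time. In MSMO1 it lay 185 bases before the start on the opposite strand, and 139, 76 and 34 bases before it on the strand of the gene. CCAAT was present in 8 of 13 entries of the called genes of the 3 sterol lists (8 of 10 genes matched) and in 28 of 50 entries of those tested (33 of 43 matched), against 34.6% of all entries. TCACNCCAC, a sterol regulatory element, was present in 0 of the 13 and 1 of the 50, against 1.13% of all entries. FDFT1 and SQLE had no entry.

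Lists of low oxygen and glucose use are given beside the 0.829% of all genes called lower. Of 15 hypoxia responsive genes, 2 were lower and 0 higher (median −0.64), namely VEGFA and MXI1. MXI1, which antagonizes MYC, differed by −1.79 (adjusted p = 0.017). Of 19 genes of glycolysis, 2 were lower and 0 higher, with a median of 0.03, beside 0.03 over all genes, and the sum over the 23 genes listed was 100.3% of that with sgGal4. SLC2A3, a glucose transporter, was at 153 and 158 TPM with sgGal4 and at 53.4 and 47.5 TPM in LK (log2 difference −1.61, adjusted p = 0.0018). Its groups lay apart, and the call held without each library but was lost with no trend (0.0577). ALDOC, an aldolase, differed by −1.88 (adjusted p = 0.017). MXI1 lost its call without any of the 4 libraries (0.0967 and 0.180 without LK replicates 1 and 2, 0.0568 and 0.0819 without sgGal4 replicates 1 and 2). ALDOC did too (0.117 and 0.170 without LK replicates 1 and 2, 0.0604 and 0.0876 without sgGal4 replicates 1 and 2).

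The next lists too are given beside the 0.829% of all genes called lower. Of 11 p53 targets, 2 were lower and 0 higher, with a median of −0.18 that was 0.29 without LK replicate 1 and 0.18 without sgGal4 replicate 2. CDKN1A, which encodes the cell cycle inhibitor p21, was at 8.52 and 10.9 TPM with sgGal4 and at 1.04 and 2.27 TPM in LK (log2 difference −2.05, adjusted p = 0.0298). GADD45A, a growth arrest gene, differed by −1.02 (adjusted p = 0.0259), and MDM2, which encodes the ligase that degrades p53, was not called (log2 difference 0.55, adjusted p = 0.211). Of 21 immediate early genes, 1 was lower and 0 higher, with a median of −0.18 that was 0.061 without sgGal4 replicate 2. EGR1, a transcription factor of this class, was at 91.6 and 106 TPM with sgGal4 and at 51.2 and 46.0 TPM in LK (log2 difference −1.01, adjusted p = 0.017). Of 21 genes of BCR-ABL and STAT5 signalling, 1 was lower and 0 higher (median −0.08). PIM1, a kinase gene induced by STAT5, was at 126 and 146 TPM with sgGal4 and at 67.9 and 73.5 TPM in LK (log2 difference −0.93, adjusted p = 0.017). CDKN1A, EGR1 and PIM1 had both LK libraries below both sgGal4 libraries.

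These calls also leaned on single libraries. CDKN1A and GADD45A lost theirs without any of the 4, with the adjusted p of either up to 0.253 without LK replicate 1, 0.320 without LK replicate 2, 0.126 without sgGal4 replicate 1 and 0.128 without sgGal4 replicate 2. EGR1 lost its call without LK replicate 1 (0.104), LK replicate 2 (0.212) or sgGal4 replicate 2 (0.0671), and PIM1 without LK replicate 1 (0.164), LK replicate 2 (0.136) or sgGal4 replicate 2 (0.0605).

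Lists of the cell cycle and of the machinery of the effectors are given beside the 2.00% of all genes called. In limma, 0 of 34 genes of DNA replication (median 0.20) and 0 of 28 genes of mitosis (median −0.09) passed. Of 17 KRAB corepressors, among them TRIM28 (log2 difference 0.31, adjusted p = 0.518), and of 18 genes of the LSD1 and CoREST complex, limma also called 0, with medians of 0.13 and 0.08.

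**Figure D4:**
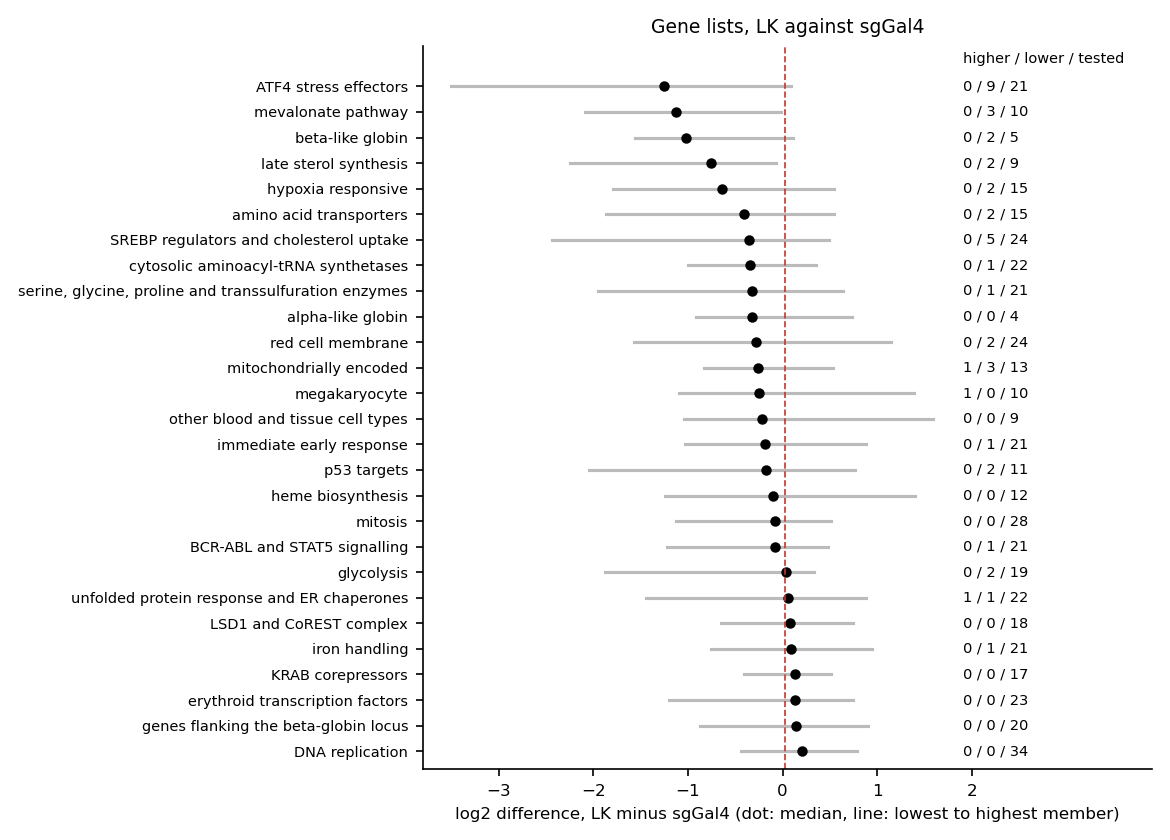
The x axis is the log2 difference of LK from sgGal4, with a dot at the median of each gene list, a line from its lowest to its highest member and a dashed line at the median of all genes (0.03). Counts of genes called higher, called lower and tested stand at the right, and the ATF4 stress effectors have the lowest median (−1.25).

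Medians of lists near 0 changed sign with single libraries. Without sgGal4 replicate 1 they were −0.0086 for erythroid transcription factors, −0.14 for iron handling, −0.024 for KRAB corepressors, −0.015 for the LSD1 and CoREST complex, −0.094 for the unfolded protein response and −0.17 for glycolysis. Without sgGal4 replicate 2 they were 0.011 for heme biosynthesis, 0.025 for BCR-ABL and STAT5 signalling and 0.048 for mitosis. Without LK replicate 1 that of glycolysis was −0.0097, and without LK replicate 2 that of iron handling was −0.0091 and that of the flanking genes −0.025. With mitochondrial genes removed the medians were −0.041 for iron handling, −0.042 for the LSD1 and CoREST complex, −0.067 for the unfolded protein response and −0.094 for glycolysis, which was also negative with size factors (−0.0056) and quantile normalization (−0.14).

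Among the higher genes, APOC1 and APOE lie side by side and encode apolipoproteins of lipid transport. APOC1, on the plus strand at chr19:45417865-45422603 in hg19 with 4 exons, was at 169 and 214 TPM with sgGal4 and at 640 and 617 TPM in LK. Its groups lay far apart, the LK mean being 328% of the sgGal4 mean (log2 difference 1.72, SE 0.133, adjusted p = 1.62e-05). APOE, 5214 bases upstream at chr19:45409053-45412650 with 4 exons, was at 49.1 and 64.0 TPM with sgGal4 and at 165 and 166 TPM in LK (log2 difference 1.55, adjusted p = 9.07e-04). Both LK libraries were above both sgGal4 libraries in both genes, and both calls held without each library. With no mean-variance trend, the call of APOE was lost (adjusted p = 0.0542, the highest over the alternatives).

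The 15 called genes with the largest increases, by a rule that asked for no overlap between groups, ran from 1.45 to 3.88 on the log2 scale, and ZNF10, APOC1 and APOE were among them. CYB5A, which encodes cytochrome b5, differed by 2.53 (adjusted p = 0.00994). HIST1H3J, a gene of histone H3, was at 53.6 and 97.2 TPM with sgGal4 and at 201 and 270 TPM in LK (log2 difference 1.68, adjusted p = 0.00426). RBM14-RBM4, listed at 6.59 and 2.19 TPM with sgGal4 and at 32.6 and 19.2 TPM in LK, is a readthrough that overlaps RBM14 and RBM4, so its level is uncertain. Among the others were PCLO of presynaptic scaffolds (2.28), EVI2B of leukocyte membranes (2.15), RAB3A of vesicle release (2.08), the metalloproteinase ADAM19 (1.82), the Notch xylosyltransferase GXYLT2 (1.81), RNF207 (1.76), the neurofilament gene NEFH (1.48) and VCX3B (1.45). Without LK replicate 1, 4 of the 15 were called, with adjusted p up to 0.303. Without LK replicate 2, 5 were called (up to 0.303), without sgGal4 replicate 1, 7 (up to 0.277), and without sgGal4 replicate 2, 9 (up to 0.135). CYB5A lost its call without LK replicate 1 (0.104) or LK replicate 2 (0.0850), RBM14-RBM4 without LK replicate 1 (0.117) and HIST1H3J without LK replicate 2 (0.0850).

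The 15 called genes with the largest decreases by the same rule included DDIT4, CHAC1, INSIG1, MSMO1, HMGCS1, BBC3, GDF15 and CDKN1A. KLHL24, which encodes a substrate adaptor of a ubiquitin ligase, differed by −2.65 (adjusted p = 0.0115). ABCB1, the drug efflux pump P-glycoprotein, was at 10.8 and 13.2 TPM with sgGal4 and at 1.43 and 2.28 TPM in LK (log2 difference −2.19, adjusted p = 0.0234). The groups lay apart. NT5DC4 differed by −2.63, ARHGAP25, which acts on the GTPase Rac, by −2.28, and RHBDF1, an inactive rhomboid protein, by −2.20. KB-1507C5.2 was at 3.67 and 4.09 TPM with sgGal4 and listed at 0 in both LK libraries (adjusted p = 0.0188), as was RP11-1035H13.3. Without LK replicate 1, 4 of the 15 were called, with adjusted p up to 0.253. Without LK replicate 2, 4 were called (up to 0.340), without sgGal4 replicate 1, 6 (up to 0.184), and without sgGal4 replicate 2, 5 (up to 0.231). KLHL24 lost its call without LK replicate 1 (0.083), LK replicate 2 (0.107) or sgGal4 replicate 2 (0.0742), and ABCB1 without LK replicate 1 (0.201), LK replicate 2 (0.124), sgGal4 replicate 1 (0.0953) or sgGal4 replicate 2 (0.102).

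The 10 most abundant called genes were mitochondrial, ribosomal and histone genes, with smaller differences. MT-ND5, a subunit of respiratory complex I, was at 13614 and 9519 TPM with sgGal4 and at 6366 and 6441 TPM in LK (log2 difference −0.83, adjusted p = 0.00547). MT-ND4, of the same complex, was at 30681 and 22693 TPM with sgGal4 and at 16534 and 17298 TPM in LK (log2 difference −0.64, adjusted p = 0.0111). In both, sgGal4 replicate 1 stood highest. MT-ND6, encoded on the other mitochondrial strand, was at 15937 and 13482 TPM with sgGal4 and at 20643 and 21700 TPM in LK (log2 difference 0.53, adjusted p = 0.0119). MT-CO3, of cytochrome oxidase, differed by −0.35 (adjusted p = 0.0411). Of 13 mitochondrially encoded genes, 1 was higher and 3 lower, with a median of −0.26, beside 1.18% of all genes called higher and 0.829% lower. Without sgGal4 replicate 2, 9 were lower, without sgGal4 replicate 1, 2 were, and without LK replicate 1 or 2, 0 were (limma). Quantile normalization gives a gene the same value wherever its rank is the same. Under it the median was about 0, as was the difference of MT-ND5. For MT-ND5 this setting therefore cannot show whether the level differed. RPL8 was lower (−0.57), and RPL38 (0.42), RPS23 (0.59), RPL37 (0.56), RPS20 (0.61) and HIST1H2BK (0.53) were higher. All 10 lost their calls without LK replicate 1 (adjusted p from 0.0521 to 0.290) or LK replicate 2 (from 0.0610 to 0.316), and MT-CO3 and RPL38 also without sgGal4 replicate 1 (0.0689 and 0.0720). Under quantile normalization the 5 higher nuclear genes lost their calls, with differences of 0.096 (HIST1H2BK), 0.095 (RPL38), 0.20 (RPS23), 0.27 (RPL37) and 0.31 (RPS20), whereas RPL8 kept its call (−0.87).

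Groups of symbols were then counted, after their values were seen. Of 75 genes of cytosolic ribosomal proteins, 16 were higher and 1 was lower, against 1.18% of all genes called higher and 0.829% lower, with a median of 0.38. The median was between 0.12 and 0.44 under the alternatives, but the 16 became 1 without LK replicate 1, 1 without LK replicate 2, 9 without sgGal4 replicate 1 and 33 without sgGal4 replicate 2. They became 5 under quantile normalization and, in limma with no trend, 0. The summed level of those listed was 62440 and 72686 TPM with sgGal4 and 84647 and 86882 TPM in LK. In the other HS2-targeted groups, which share these controls, it was about as in LK. It was 85088 and 83587 TPM in K, 81107 and 80827 TPM in L and 86253 and 88378 TPM in KL. Of 37 histone genes named HIST1, 15 were higher and 0 lower, with a median of 0.54 (0.39 to 0.78 under the alternatives). The 15 became 1 without LK replicate 1, 0 without LK replicate 2, 6 without sgGal4 replicate 1 and 18 without sgGal4 replicate 2, and 0 with no trend (limma). The HIST1 sum was 11016 and 14071 TPM with sgGal4 and 17238 and 17179 TPM in LK. It was 15961 and 15138 TPM in K, 14876 and 15611 TPM in L and 13907 and 14076 TPM in KL. Of 72 genes of mitochondrial ribosomal proteins, 3 were higher and 0 lower, with a median of 0.29. Their sum was 3650 and 4029 TPM with sgGal4 and 4747 and 4761 TPM in LK. It was 4968 and 4638 TPM in K, 4415 and 4436 TPM in L and 4373 and 4360 TPM in KL. Ribosomal protein and histone genes have near-copies in the genome, and dropped reads with several locations make their levels uncertain.

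LK was then set against the other HS2-targeted groups as labelled. Because ZNF10 and KDM1A levels do not follow the labels in every group, these contrasts cannot show whether the choice and order of the effectors mattered. The comparisons share the LK libraries. LK differed from KL in 39 genes (0.385%), 19 higher and 20 lower, from L in 12 genes (0.118%), from K in 1 gene (0.00987%) and from the mean of K, L and KL in 5 genes (0.0494%). The count against KL was 3 without LK replicate 1 or 2 and 4 without KL replicate 1 or 2. That against L was 3 without LK replicate 1, 5 without LK replicate 2, 2 without L replicate 1 and 3 without L replicate 2, and that against the mean was 3 without LK replicate 1, 2 without LK replicate 2 and 3 without K replicate 1. HBE1 was at 384 and 361 TPM in KL, 695 and 759 TPM in K and 1019 and 986 TPM in L. Only against L was HBE1 called in LK (log2 difference −0.99, adjusted p = 0.00538), a call that was lost without L replicate 1 (0.125), L replicate 2 (0.0774) or LK replicate 2 (0.127), and with no filter or no trend (up to 0.243). HBG2 was higher in LK than in KL (log2 difference 0.80, adjusted p = 0.0485), a call that was lost without any of these 4 libraries, with adjusted p from 0.190 to 0.428. Settings in which it was also lost included size factors, quantile normalization, a pseudocount of 0.1, no filter, no trend and mitochondrial genes removed. ZNF10 was the gene called against K (log2 difference 3.44, adjusted p = 5.08e-04), and this call held without each of these 4 libraries and was lost with no filter or no trend (adjusted p up to 0.0652). It was lower in LK than in KL (log2 difference −3.37), which held without each library, and lower than in L (−1.92), which was lost without any of the 4 (adjusted p from 0.191 to 0.358) and with size factors, quantile normalization, a pseudocount of 0.1, no filter or no trend.

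Among the largest differences from KL were those of ZNF10 and of FN1, which was higher in LK by 2.80 (adjusted p = 4.19e-06) and held without each library. Also lower in LK were LCP2, an adaptor of immune receptor signalling (log2 difference −2.99), RAB27B, a GTPase of vesicle secretion (−2.98), FAM111A, a protease gene (−2.88), and RP11-1035H13.3, listed at 0 in both LK libraries. Also higher in LK were HECW2, a ubiquitin ligase gene (log2 difference 2.74), KLK13, a protease gene (2.36), and AL136376.1 and RP11-795F19.5, both listed at 0 in both KL libraries. Apart from ZNF10 and FN1, each of these genes lost its call without any of the LK and KL libraries, with adjusted p from 0.0732 to 0.337. Among the 12 genes that differed from L, KDM1A was lower in LK (log2 difference −1.66, adjusted p = 0.00644), as were SOD3, an extracellular superoxide dismutase gene (−2.47), and ACSM3, an acyl-CoA synthetase gene (−1.57), and EPB41L3, a membrane skeleton gene, was higher (1.82). SOD3, ACSM3 and EPB41L3 lost their calls without any of the LK and L libraries, with adjusted p from 0.0868 to 0.431. For KDM1A the adjusted p was 0.152 without L replicate 1, 0.0541 without L replicate 2, 0.128 without LK replicate 1 and 0.0722 without LK replicate 2.

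FN1, which encodes the matrix protein fibronectin and has 46 exons on the minus strand at chr2:216225588-216300791 in hg19, was at 103 and 129 TPM with sgGal4 and at 209 and 195 TPM in LK. It was at 127 and 104 TPM in K, 31.7 and 31.3 TPM in L and 28.7 and 27.4 TPM in KL. LK thus stood above all other libraries. On the log2 scale FN1 in LK differed by 2.64 from L and by 2.80 from KL. The difference from K was 0.80 and was not called (adjusted p = 0.655). Against the mean of K, L and KL the log2 difference was 2.08 (adjusted p = 1.46e-05), and the call held without each of the 8 libraries. Against sgGal4 it was 0.80 (adjusted p = 0.042), and this call was lost without LK replicate 1 (0.277), LK replicate 2 (0.268) or sgGal4 replicate 1 (0.211). Its promoter is shown, since of the 5 genes that differed from the mean of K, L and KL only FN1 kept its call without each library, from RefSeq at chr2:215436019-215436318 of GRCh38.p14 on the minus strand, with the cyclic AMP response element TGACGTCA in capitals.
FN1: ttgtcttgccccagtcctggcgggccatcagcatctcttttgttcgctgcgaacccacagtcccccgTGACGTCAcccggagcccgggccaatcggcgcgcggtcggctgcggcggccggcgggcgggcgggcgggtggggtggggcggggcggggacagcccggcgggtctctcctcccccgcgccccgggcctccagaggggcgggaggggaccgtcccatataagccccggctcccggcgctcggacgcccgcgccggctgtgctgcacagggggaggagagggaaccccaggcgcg
The motif lay 183 bases before the start, and 1.85% of all entries and 3.07% of those of genes tested hold it.

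VIM, the intermediate filament gene vimentin, was at 515 and 534 TPM with sgGal4 and at 754 and 713 TPM in LK, without overlap, but was not called against sgGal4 (log2 difference 0.48, adjusted p = 0.051). It was higher in LK than in the mean of K, L and KL (log2 difference 0.75, adjusted p = 0.00621), and this call was lost without LK replicate 1 (0.275) or LK replicate 2 (0.201). HBZ, at 800 and 829 TPM in LK, was at 1345 and 1340 TPM in K, 2712 and 1909 TPM in L and 1457 and 1659 TPM in KL. LK stood below all 6 of these libraries (log2 difference from their mean −1.04, adjusted p = 0.00164), and the call was lost without LK replicate 1 (0.0627) or LK replicate 2 (0.0513). DDIT4 was at 25.4 and 22.2 TPM in K, 49.2 and 39.2 TPM in L and 49.9 and 35.4 TPM in KL, above both LK libraries and below both sgGal4 libraries. Its difference of LK from the mean of K, L and KL was −1.28 (adjusted p = 0.0311), and it was lost without either LK library and without 4 of the other 6, with adjusted p up to 0.484. TFPI, an inhibitor of coagulation, was at 372 and 309 TPM with sgGal4 and at 163 and 180 TPM in LK, without overlap (log2 difference −0.98, adjusted p = 0.00556). This call was lost without LK replicate 1 (0.0758) or LK replicate 2 (0.0546). TFPI was higher in LK than in L (log2 difference 0.87), a call lost without any of these 4 libraries (adjusted p from 0.222 to 0.431).

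**Figure D5:**
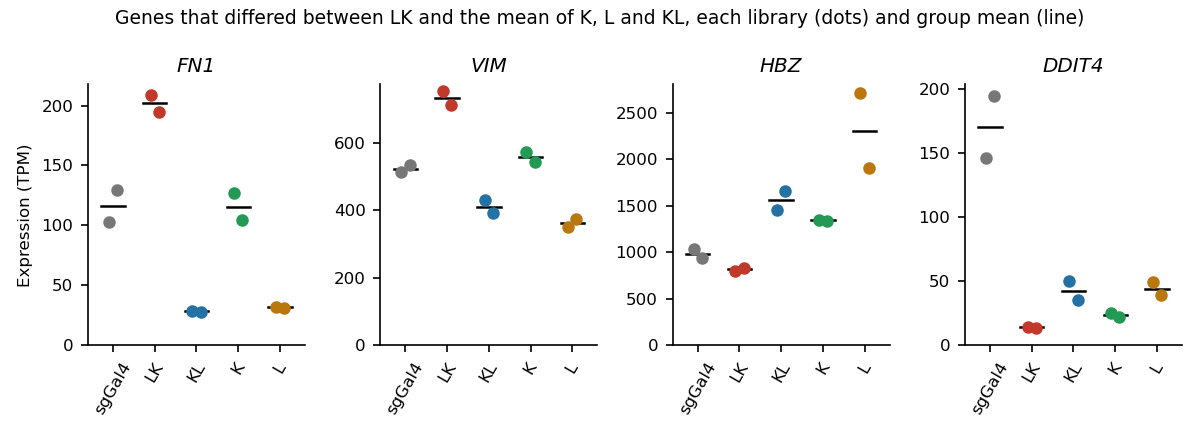
The y axis is the TPM of FN1, VIM, HBZ and DDIT4 from 0, with 1 dot per library for the 5 groups on the x axis and a line at each group mean. FN1 and VIM are highest in LK, and HBZ and DDIT4 are lowest.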

How the data were processed

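RNA-seq of 10 K562 libraries (5 groups of 2) was taken as deposited. The authors aligned reads to hg19 with STAR (version 2.5.2b), dropped reads with several locations and deposited TPM values computed with RSEM, whose version is not given. Differences were tested with limma (version 3.58.1, R version 4.3.3) on log2(TPM + 1) for genes averaging 1 TPM or more, in a fit of all 10 libraries with a mean-variance trend, two-sided, with p adjusted by Benjamini-Hochberg over the 10127 genes tested. The step was tested on simulated data. The authors name DESeq2, which needs read counts and was not used here. Members and lists were chosen with earlier results of these data known. Genes were named by a rule, apart from some items not reported here: the β-like globin genes, KDM1A and ZNF10, the 15 called genes with the largest increases and the 15 with the largest decreases without overlap, the 10 most abundant called genes, up to 5 per direction for each other comparison, called list members and up to 4 abundant members per list.

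Alternatives were a pseudocount of 0.1, no filter, a filter at a mean of 10 TPM, size factors, quantile normalization, removal of the 13 mitochondrially encoded genes, no trend, only the groups compared, the replicate block and leaving out each library. Gene positions are from GENCODE (version 44, mapped to hg19), in which 9307 of the 10127 genes tested had a position, and promoters from RefSeq. Tables were handled and plots drawn with Python (version 3.11.15), numpy (version 2.4.6), matplotlib (version 3.10.9) and jsonlite (version 2.0.0).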

Additional observations from a re-analysis of the deposited data

Results flagged for a closer look

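The difference of LK from the mean of K, L and KL was itself tested in limma, and 5 genes passed an adjusted p of 0.05, each a difference between HS2-targeted groups. FN1 was higher in LK by 2.08 and VIM by 0.75 on the log2 scale. HBZ differed by −1.04, DDIT4 by −1.28 and KB-1507C5.2, listed at 0 in both LK libraries, by a fitted −2.28 that is no fold. Against K alone none of these 5 genes was called, with differences of 0.80 for FN1, 0.39 for VIM and −0.73 for DDIT4. FN1 kept its call without each of the 8 libraries. VIM lost its call without LK replicate 1 (adjusted p = 0.275) or LK replicate 2 (0.201), HBZ without LK replicate 1 (0.0627) or LK replicate 2 (0.0513), and DDIT4 and KB-1507C5.2 without 6 of the 8 libraries each, both LK libraries included (up to 0.484). HBZ, DDIT4 and KB-1507C5.2 also lost their calls with no filter on low values and with no mean-variance trend, VIM with no trend, and DDIT4 and KB-1507C5.2 with only the groups compared. No cause was tested. Groups of 2 libraries allow no test for outlying libraries.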

How the results depend on the processing

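With no filter on low values, LK differed from sgGal4 in 61 genes, from KL in 20, from K in 2 and from L in 6, and from the mean of K, L and KL in 6 (6 higher, 0 lower). With no mean-variance trend these were 15, 17, 0 and 2 genes, and 1 against the mean of K, L and KL. For LK against K in limma, 552 genes passed an unadjusted p under 0.05 with no trend and 525 with it. With only the groups compared, the called genes in the same order were 57, 23, 2, 6 and 3. Leaving out each library in turn, and assuming that a lone library varies like the other groups, gave 20 to 209 genes against sgGal4, 3 to 4 against KL, 2 to 5 against L and 2 to 6 against the mean of K, L and KL. With mitochondrial genes removed, HBD reversed to −0.013. KDM1A reversed to 0.07 without LK replicate 1 and to 0.19 without sgGal4 replicate 2, in a range of −0.20 to 0.19. The cause was not tested in any of these. The other values were log2 differences of named genes and counts of genes or list members. A log2 difference held when its direction and side of the threshold stayed, and a count when it changed little or not at all. Of these values, 1521 held, 155 counts moved, 372 log2 differences lost the threshold and 19 gained it. The 1521 therefore do not give the stability of genes alone. Of 72 named genes called, 7 were called under every alternative that gave them a value, namely HBE1, ZNF10, APOC1, DDIT4, CHAC1, VEGFA and ASNS, and 0 changed direction.

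The labels do not say whether libraries of different groups with the same replicate number were handled together. With the replicate block LK differed from sgGal4 in 151 genes, and 147 of the 203 calls were kept. Calls against sgGal4 that were lost included those of FN1, DDIT3, SLC25A37, SPARC, ACSS2, MT-CO3, RPL38, RAB3A, ADAM19 and GXYLT2. Their adjusted p ran from 0.0515 (SPARC) to 0.0670 (GXYLT2) in limma. Lost calls in the other comparisons included those of HBG2 and HECW2 against KL and of EPB41L3 and TFPI against L. The call of KB-1507C5.2 against the mean of K, L and KL was also lost.

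The depth of the libraries is unknown, so the precision of low values cannot be given.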
